A study of Mus musculus with 7 samples.

Results

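The 10 genes described here write, read or recruit methylation of lysine 9 of histone H3 (H3K9) in the mouse. They were chosen by name as H3K9 methyltransferases, HP1 proteins and corepressors. All 10 were found among the 37620 genes of the table, and 8 of them had a value of at least 1 FPKM (fragments per kilobase of gene, scaled to the reads of the library) in at least 3 libraries, the filter used below. RNA had been sequenced from 7 single mature oocytes in metaphase II (MII), each with its own library. The 3 controls (WT1, WT2 and WT4) were Hiraf/f without Cre, so they carried the floxed alleles too. Another control that the series' design names was not analysed here. The 4 knockouts (KO1 to KO4) were Hiraf/f with Zp3-Cre, a Cre whose promoter is active in growing oocytes and not in other cells of the follicle. Hira encodes a chaperone that deposits the histone variant H3.3. The labels name no animal, strain or age, so each genotype counts as 1 sample. No test of the genotype was made, and "higher" and "lower" describe these libraries.

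Methylated H3K9 marks silent chromatin. TRIM28 is brought to DNA by KRAB zinc finger proteins and recruits SETDB1, which trimethylates H3K9 at retroelements and imprinted regions and needs its partner ATF7IP for stability. SUV39H1 and SUV39H2 trimethylate H3K9 in pericentric heterochromatin, while EHMT2 (G9a) and EHMT1 (GLP) form a dimer that adds the lower methylation states elsewhere. The HP1 proteins CBX1, CBX3 and CBX5 bind the methylated lysine through a chromodomain. Maternal TRIM28 is known for keeping imprints methylated in the early embryo.

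Hira itself was at 0.312, 0.347 and 0.291 FPKM in WT1, WT2 and WT4 and at 0.0941, 0.0955, 0.0242 and 0.0997 FPKM in KO1 to KO4. No KO value reached the lowest WT value, with 132 Hira reads in the WT oocytes and 49 in the KO oocytes. Reads in genes numbered 15340782 to 25940519 per library. All 10 oocyte markers, such as Gdf9 and Zp3, passed the filter, and 5 of them were over 1.5-fold lower in KO, beside 7.92% of all genes. As deposited, 4 of the 10 had all KO oocytes below all WT oocytes, beside 8.94% of all genes. After quantile normalization 1 of the 10 was lower by 1.5-fold, beside 12.7%, and none had all KO oocytes below, beside 13.7%. With median-ratio scaling, another way to scale the libraries, 5 were lower by that much, beside 14%. All KO oocytes then lay below for 5, beside 14.9%. Among markers of cumulus and granulosa cells, 16 of 20 averaged less than 1 FPKM in each genotype, and Amh, Foxl2, Lhcgr, Pgr, Tnfaip6 and Wt1 were listed at 0 in all 7 libraries. The 4 above the filter were Serpine2, Cyp19a1, Nr5a2 and Fshr. Nr5a2 was at a mean of 2.53 FPKM in WT and 7.25 in KO oocytes, and Fshr passed only through KO2, KO3 and KO4 and was listed at 0 in the others. The summed level of the 20 markers, 204 to 271 FPKM in WT and 237 to 303 FPKM in KO oocytes, was nearly all Serpine2 (means of 218 and 245 FPKM). The part of other cells or of the oocyte markers in the values below was not tested. In whole-cell RNA that is scaled to its library, a higher FPKM cannot be told apart from less of the other RNA.

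The bases before the annotated start are shown for 4 members that carry the results. Trim28 and Setdb1 stood higher in every KO oocyte, Cbx1 was the most abundant member and lay lower in KO, and Ehmt2 had almost no reads. The sequences are from RefSeq on build GRCm38.p6, matched by symbol, each the 250 bases before a start and written 5′ to 3′ in the direction of the gene. Trim28 is at chr7:13023902-13024151 on the plus strand, Setdb1 at chr3:95357203-95357452 on the minus strand, Cbx1 at chr11:96788885-96789134 on the plus strand and the first of the Ehmt2 starts at chr17:34898224-34898473 on the plus strand. Capitals mark 3 motifs on either strand: the GC box, spelled GGGCGG; the so-called CCAAT box, named for its letters; and the E-box that reads CACGTG. No match overlapped another.

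Trim28: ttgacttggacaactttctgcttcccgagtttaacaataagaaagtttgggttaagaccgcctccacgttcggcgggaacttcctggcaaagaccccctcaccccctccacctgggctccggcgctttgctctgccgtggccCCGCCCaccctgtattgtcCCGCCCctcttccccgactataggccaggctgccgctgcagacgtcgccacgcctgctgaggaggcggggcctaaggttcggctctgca

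Setdb1: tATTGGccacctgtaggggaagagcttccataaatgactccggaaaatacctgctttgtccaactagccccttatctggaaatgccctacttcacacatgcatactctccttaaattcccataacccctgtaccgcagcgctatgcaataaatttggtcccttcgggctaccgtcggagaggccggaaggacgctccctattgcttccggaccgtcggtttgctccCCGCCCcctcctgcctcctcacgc

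Cbx1: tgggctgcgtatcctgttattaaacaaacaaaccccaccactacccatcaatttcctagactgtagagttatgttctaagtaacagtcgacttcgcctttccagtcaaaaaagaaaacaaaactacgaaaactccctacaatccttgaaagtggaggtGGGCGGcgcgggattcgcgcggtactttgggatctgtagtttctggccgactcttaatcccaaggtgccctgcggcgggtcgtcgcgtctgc

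Ehmt2: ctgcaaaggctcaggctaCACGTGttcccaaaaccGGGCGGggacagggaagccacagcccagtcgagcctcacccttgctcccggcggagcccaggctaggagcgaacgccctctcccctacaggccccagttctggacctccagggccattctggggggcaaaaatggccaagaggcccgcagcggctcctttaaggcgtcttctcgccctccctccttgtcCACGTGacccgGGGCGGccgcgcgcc

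The Trim28 window held 2 GC boxes, and its neighbour in function, Setdb1, held 1 GC box and 1 CCAAT box. Cbx1 had 1 GC box and Ehmt2 had 2 GC boxes and 2 E-boxes. A GC box was present in 32.7% of all 32851 windows of the same length, a CCAAT box in 33.8% and this E-box in 6.02%. None of the 14 windows of the 10 members held a TATA box (TATAAA) or the element bound by the oocyte factor NOBOX (TAATTG), which were in 12.4% and 7.17% of all windows. The CpG count was 17 for Trim28, 13 for Setdb1, 16 for Cbx1 and 18 for Ehmt2, against a median of 6. Ehmt2, with almost no reads, thus had the most CpGs of the 4 windows.

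The 10 genes differed widely in level. In WT oocytes Cbx1 was highest at 35.4 ± 2.01 FPKM (mean ± SD over single oocytes, n = 3), and no other member reached its range. Atf7ip (12.8 ± 1.03 FPKM), Trim28 (11.5 ± 3.29), Setdb1 (9.80 ± 0.996), Suv39h2 (9.01 ± 4.09) and Cbx3 (5.91 ± 1.57) followed, and each overlapped the next in that order. The order depends on the gene lengths behind FPKM. Implied over annotated length, relative to the median over genes, was 0.197 for Atf7ip, 1.63 for Trim28, 1.13 for Setdb1 and 1.71 for Suv39h2. Atf7ip had 3601 reads in the WT oocytes, fewer than Trim28 (5306), Setdb1 (5244) or Suv39h2 (4782), so its place rests on the short length. Cbx5 (3.77 ± 0.0707 FPKM) and Ehmt1 (3.67 ± 0.382) lay below Cbx3 and overlapped each other. Length enters here too, since Ehmt1 had 2905 reads in the WT oocytes, more than Cbx3 (1624) or Cbx5 (1537). The length ratio was 1.42 for Ehmt1, 0.647 for Cbx3 and 0.655 for Cbx5. Suv39h1 and Ehmt2 were near 0. In KO oocytes (n = 4) the order differed at the top, where Trim28 at 26.0 ± 2.11 FPKM overlapped Cbx1 at 27.9 ± 4.01 and stood clear of Atf7ip at 16.9 ± 2.66. The 8 members above the filter were over 1 FPKM in all 7 libraries and had 333 to 5365 reads per library.

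**Figure D1:**
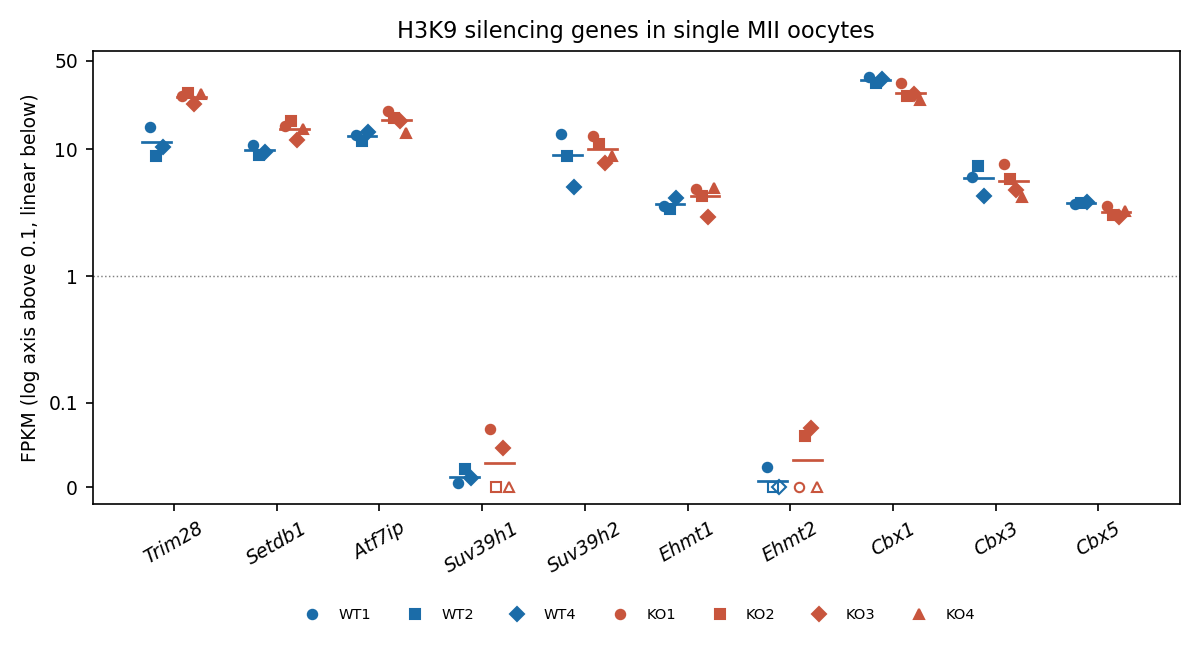
FPKM of the 10 genes in each single oocyte (vertical axis, logarithmic above 0.1 and linear below), WT in blue and KO in red, with a bar at each mean, open symbols at 0 and a dotted line at 1 FPKM. Trim28 and Setdb1 have all KO oocytes above all WT oocytes, Cbx5 has all of them below, and Suv39h1 and Ehmt2 lie near 0 in both genotypes.

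Trim28 differed most among the members. It was at 15.1, 8.82 and 10.4 FPKM in WT1, WT2 and WT4 and at 26.2, 27.7, 23.0 and 27.1 FPKM in KO1 to KO4. The KO oocytes lay close together and all above WT1, the highest control. The ratio of the means was 2.27, and mean log2(FPKM + 1) differed by 1.14 in the deposited values, by 0.99 after quantile normalization and by 0.91 after median-ratio scaling. A larger difference was seen for 5.54% of the genes that passed the filter. In the annotation used here, no other gene shares a stretch of 50 bases with Trim28 or overlaps its exons. Copies outside that annotation, and the gene models behind the counts, were not tested.

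Setdb1, the methyltransferase that TRIM28 recruits, was at 10.9, 9.02 and 9.45 FPKM in the WT oocytes and at 15.2, 16.6, 11.8 and 14.4 FPKM in KO1 to KO4. All KO oocytes lay above the WT range, KO3 closest to it. The ratio of the means was 1.48, and the log2 difference of 0.52 did not reach 1.5-fold. It was 0.35 after quantile normalization and 0.29 under median-ratio scaling, and the oocytes of the 2 genotypes were apart under both. Without WT1 or without KO3 the difference passed 1.5-fold (0.59 and 0.61). Other genes hold 10.2% of the annotated Setdb1 sequence, among them Gm4349 (7.72%) and Gm37500 (2.22%), which have no values here.

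Atf7ip, whose product keeps SETDB1 in the nucleus, was at 13.1, 11.7 and 13.7 FPKM in the WT oocytes and at 20.0, 17.6, 16.6 and 13.6 FPKM in KO1 to KO4. The groups overlapped through KO4, which lay just under WT4. The log2 difference was 0.37 in the deposited values and 0.21 and 0.14 after quantile and median-ratio scaling.

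For the enzymes that act in pericentric heterochromatin, nearly all counted RNA came from 1 paralogue. Suv39h2, known for its expression in germ cells, was at 13.2, 8.80 and 5.03 FPKM in the WT oocytes and at 12.8, 11.0, 7.86 and 8.86 FPKM in KO1 to KO4. The WT values alone spanned more than the KO values, and the groups overlapped. The log2 difference of 0.22 was 0.02 after quantile normalization and 0.00 under median-ratio scaling. It turned to -0.11 without WT4 and was 0.51 without WT1. Suv39h1 had 1, 5 and 2 reads in the WT oocytes and 13, 0, 14 and 0 reads in KO1 to KO4. The sums were 8 reads in WT (exact 95% Poisson interval 3.45 to 15.8) and 27 in KO (17.8 to 39.3), and the reads of the KO oocytes came from KO1 and KO3. A count of 0, taken as up to 3 reads, allows 0.0130 FPKM in KO2 and 0.0119 FPKM in KO4. Mean FPKM of Suv39h2 was 716 times that of Suv39h1 in WT and 351 times in KO oocytes. Of the Suv39h1 exons, 14.6% overlap Gm14820, which was at 1.59 to 3.99 FPKM, so reads there may have been counted elsewhere or dropped.

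Counted RNA of the genes for G9a and GLP was split in a similar way. Ehmt1, which encodes GLP, was at 3.54, 3.37 and 4.11 FPKM in the WT oocytes and at 4.87, 4.27, 2.90 and 4.94 FPKM in KO1 to KO4. KO3 was the lowest oocyte and the groups overlapped. The log2 difference was 0.15 as deposited and turned to -0.11 after quantile normalization and to -0.04 after median-ratio scaling. Ehmt2, which encodes G9a, had 5, 0 and 0 reads in the WT oocytes and 0, 15, 23 and 0 reads in KO1 to KO4. Only WT1, KO2 and KO3 held any, in sums of 5 (1.62 to 11.7) and 38 (26.9 to 52.2), and the zeros allow 0.0111 to 0.0158 FPKM. Mean FPKM of Ehmt1 was 470 times that of Ehmt2 in WT and 130 times in KO oocytes. In the annotation used here no exon of Ehmt2 overlaps another gene and 0.468% of its sequence is shared. The gene models behind the counts are not given in the sources used here, and their part in the values near 0 of Ehmt2 and Suv39h1 was not tested. Intervals here cover counting error only, because reads of amplified cDNA are not independent molecules.

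The HP1 genes Cbx1 and Cbx5 were lower on average in KO oocytes, and Cbx3 overlapped fully. Cbx1 (HP1 beta) was at 37.2, 33.2 and 35.9 FPKM in the WT oocytes and at 33.6, 26.2, 27.4 and 24.3 FPKM in KO1 to KO4. KO1 lay within the WT range and the other KO oocytes lay below it. The mean was 1.27-fold lower in KO. The log2 difference was -0.34 in the deposited values, -0.46 after quantile normalization and -0.58 with median-ratio scaling, and after both of these steps no KO oocyte reached the WT range.

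Cbx5 (HP1 alpha) was at 3.72, 3.74 and 3.85 FPKM in the WT oocytes and at 3.60, 3.02, 2.95 and 3.24 FPKM in KO1 to KO4. Every KO oocyte was below the narrow WT range, KO1 by least. With 494 reads in WT1 and 453 in KO1, the gap between these oocytes is within counting error. The log2 difference was -0.19 in the deposited values and -0.44 and -0.37 after quantile and median-ratio scaling, all short of 1.5-fold.

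Cbx3 (HP1 gamma) was at 6.04, 7.41 and 4.27 FPKM in the WT oocytes and at 7.63, 5.79, 4.76 and 4.19 FPKM in KO1 to KO4. KO1 was the highest and KO4 the lowest of all 7 oocytes, so the groups overlapped fully. The log2 difference of -0.07 turned to 0.09 without WT2 and to 0.04 without KO4. Cbx3 shares 8.67% of its sequence with other genes. Among them are Gm49164 (8.30%), which has no values here, and several genes named as Cbx3 pseudogenes. One of these pseudogenes, Cbx3-ps6 (7.39%), was at 10.7, 18.5 and 14.7 FPKM in the WT oocytes. In KO1 to KO4 it was at 18.5, 13.0, 8.86 and 7.67 FPKM. Cbx3-ps6 was above Cbx3 itself in every library. Reads of the pair cannot be assigned with certainty.

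The shares of the HP1 genes overlapped between the genotypes. Cbx1 made up 78.5% ± 3.39 of the summed HP1 level in WT and 76.1% ± 1.54 in KO oocytes. Cbx5 made up 8.37% ± 0.416 and 8.81% ± 0.961. The summed level was 45.1 ± 1.59 FPKM in WT and 36.7 ± 5.64 in KO oocytes, and KO1 at 44.8 FPKM lay among the controls.

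**Figure D2:**
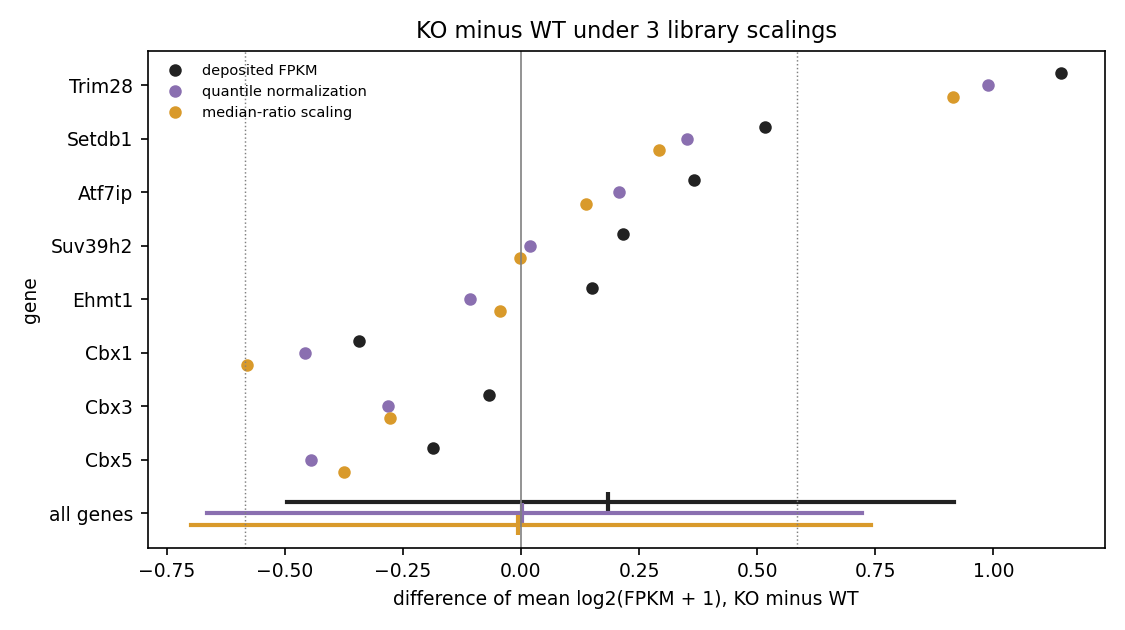
KO minus WT difference of mean log2(FPKM + 1) for the 8 members above the filter (rows) under 3 library scalings (colours). The bottom row gives the median and the span from the 10th to the 90th percentile of all genes above the filter, and dotted lines mark 1.5-fold. Trim28 lies right of 1.5-fold at 1.14, 0.99 and 0.91, while Suv39h2 and Ehmt1 sit near 0 and change sign with the scaling.

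With 8 members above the filter, the counts of members are read beside the shares of all genes. Over 1.5-fold higher in KO was 1 of 8 members (Trim28), beside 22.6% of all 8033 genes above the filter, and none was over 1.5-fold lower, beside 7.92%. All KO oocytes lay above all WT oocytes for 2 of 8 members (Trim28 and Setdb1), beside 18.9% of all genes. Cbx5 was the 1 member with every KO oocyte below, beside 8.94%. Shares were much the same for the 3692 genes at the members' mean levels of 3.44 to 31.1 FPKM, at 23.9%, 7.96%, 19.7% and 9.34%. The median difference of the 8 members was 0.18, equal to the 0.18 of all genes. After quantile normalization 1 member was over 1.5-fold higher and none lower, beside 14.4% and 12.7% of all genes, while 2 lay above and 2 below without overlap, beside 12.4% and 13.7%. After median-ratio scaling the members' counts were the same, beside 14.8%, 14%, 12.5% and 14.9% of all genes. The members below were then Cbx1 and Cbx5. Quantile normalization took the median of all genes to 0.00 and that of the members to -0.045. Median-ratio scaling took the median of all genes to -0.01 and that of the members to -0.024.

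Ratios within an oocyte do not change when a library is multiplied by a factor. They were chosen after the values had been seen and are given as a description. Trim28 over Cbx1 was 0.407, 0.265 and 0.291 in WT1, WT2 and WT4 and 0.781, 1.06, 0.837 and 1.11 in KO1 to KO4. The ratio was thus 2.95 times as high on average in KO (0.948 ± 0.163 against 0.321 ± 0.0758), with a clear gap between the groups. Setdb1 over Cbx1 was 0.276 ± 0.0158 in WT and 0.528 ± 0.101 in KO oocytes, also without overlap. Trim28 stood higher relative to Setdb1 too, at 1.16 ± 0.210 in WT and 1.80 ± 0.133 in KO oocytes. By contrast, Atf7ip over Setdb1 (1.31 ± 0.128 and 1.18 ± 0.216) and Cbx1 over Cbx5 (9.40 ± 0.561 and 8.71 ± 0.857) overlapped between the genotypes.

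**Figure D3:**
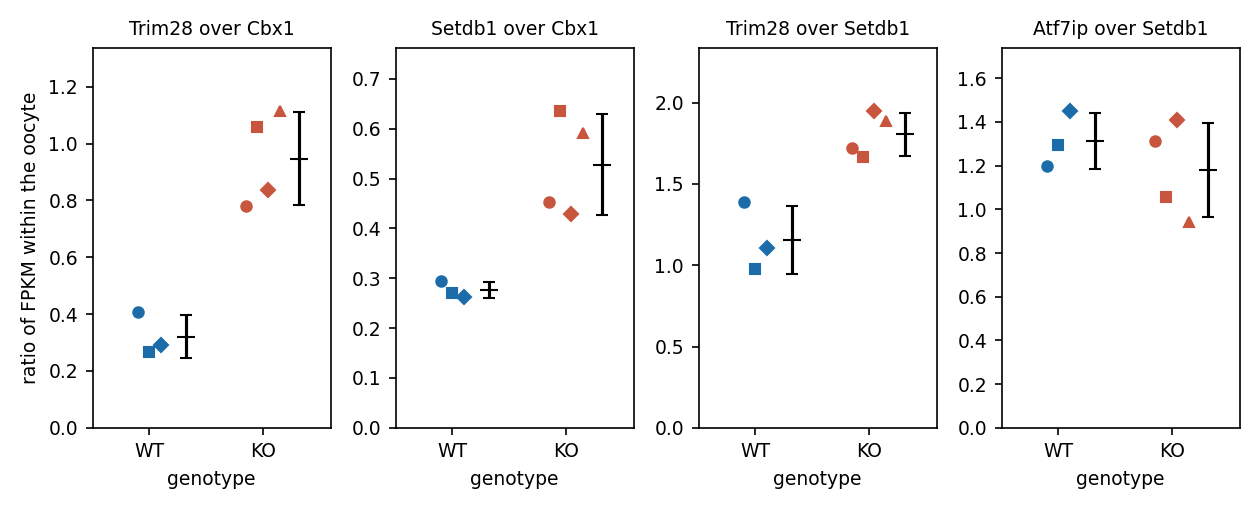
Ratio of FPKM between 2 members inside the same oocyte (vertical axes from 0), with 1 symbol per oocyte and the mean ± SD of each genotype beside the symbols. The KO oocytes lie above the WT oocytes in the first 3 panels, for example 0.781 to 1.11 against 0.265 to 0.407 for Trim28 over Cbx1, and overlap them in the panel of Atf7ip over Setdb1.

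KO oocytes also differed among themselves. Relative to the WT mean, the median log2 level of the 8 members was 0.45, 0.26, -0.16 and 0.07 in KO1 to KO4. For all genes above the filter the same median was 0.17, 0.28, 0.13 and 0.15. KO1 had the highest Atf7ip, Suv39h2, Cbx1, Cbx3 and Cbx5 of the KO oocytes, and KO3 had the lowest Trim28, Setdb1, Suv39h2, Ehmt1 and Cbx5. Among the 5 genes whose levels most resembled the members' mean standardised level over the 7 oocytes were Slk (Pearson r = 0.97), Lrrc47 (0.97), Slc4a7 (0.96) and Rassf3 (0.96). They are the top of a ranking of all genes over 7 oocytes, which share library and depth, and each of those named was highest in KO1. The members themselves followed this mean level less closely. Their r ran from 0.08 for Cbx5 and 0.13 for Cbx1 to 0.76 for Suv39h2, with Trim28 at 0.50.

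Other genes of H3K9 silencing were read from 6 lists with 60 genes, of which 40 passed the filter. Over 1.5-fold higher in KO were 8 of these, beside 22.6% of all genes, and 1 was lower by that much, beside 7.92%. The median difference was 0.23 for partners of SETDB1 and TRIM28, 0.26 for HUSH and MORC and 0.22 for G9a and GLP partners. It was 0.40 for the other methyltransferases (2 genes only), 0.16 for HP1 partners and 0.23 for demethylases. All genes above the filter had a median of 0.18. In the same order, the list medians under median-ratio scaling were 0.02, 0.10, 0.01, 0.22, -0.07 and 0.03. That of all genes was then -0.01. With median-ratio scaling the counts were 4 higher and 5 lower, beside 14.8% and 14% of all genes. Zfp809 and Cdyl2 were under 1 FPKM in every WT oocyte and passed the filter only through KO oocytes, so the filter itself favours a higher value in KO for them. The same holds for 390 of the 8033 genes above the filter.

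Partners of SETDB1 and TRIM28 held 4 genes over 1.5-fold higher and 1 lower among 12, beside 22.6% and 7.92% of all genes. The 4 include Zfp809, which passed the filter only through KO oocytes. With median-ratio scaling 3 were higher and 3 lower, beside 14.8% and 14%. Zfp809, a KRAB zinc finger protein that silences retroviruses through TRIM28, was at 0.377, 0.820 and 0.951 FPKM in the WT oocytes and at 3.28, 1.51, 1.98 and 3.44 FPKM in KO1 to KO4. Every KO oocyte was above the controls, and the difference of 1.03 was 0.88 with median-ratio scaling. Because the filter favours a higher KO value for Zfp809, these values are given as a description only. Trim33, a relative of TRIM28, was at 8.48, 4.81 and 5.10 FPKM in the WT oocytes and at 15.8, 13.3, 8.58 and 10.9 FPKM in KO1 to KO4. KO3 lay just over WT1, and the groups overlapped under both other scalings. SUMO proteins modify TRIM28 and attract SETDB1. Sumo3 was higher in KO, at 6.56 ± 1.46 against 2.84 ± 0.882 FPKM, and its KO and WT oocytes were apart under all 3 scalings. Sumo2, the most abundant gene of the list, was at 365 ± 22.1 FPKM in WT and 366 ± 38.0 in KO oocytes. Its difference of 0.00 was 0.27 after quantile normalization and -0.25 under median-ratio scaling, and other genes hold 19.2% of its sequence.

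Among genes of the HUSH complex, which spreads H3K9 methylation with SETDB1, and of the MORC family, 5 passed the filter. Morc3 did, while Morc2a, Morc2b and Morc4 did not. Over 1.5-fold higher was 1 of the 5, beside 22.6% of all genes, and none was under the other scalings. The higher gene was Pphln1, the periphilin gene, at 9.54 ± 2.09 FPKM in WT and 15.8 ± 1.68 in KO oocytes. Its difference of 0.69 was 0.50 and 0.46 under quantile and median-ratio scaling. The genotypes did not overlap under any of the 3. Mphosph8, which reads the mark, was much more abundant and lay slightly lower in KO (133 ± 9.48 against 157 ± 9.38 FPKM, a difference of -0.24), with overlap after quantile normalization only. Of the annotated Mphosph8 sequence, 8.12% is shared with Gm16973, which has no values here, and the effect on the counted reads was not tested.

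Of the other H3K9 methyltransferase genes, 2 of 5 passed the filter. Prdm2 was at 1.62 ± 0.288 FPKM in WT and 3.04 ± 0.492 in KO oocytes, with every KO oocyte above. Its difference of 0.62 was 0.35 after quantile normalization and 0.45 with median-ratio scaling, both short of 1.5-fold. Setdb2 overlapped between genotypes (3.70 ± 1.55 FPKM in WT, 4.18 ± 0.963 in KO), and its difference of 0.17 turned to -0.07 after quantile normalization and to -0.02 after median-ratio scaling.

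Partners of G9a and GLP had 1 of 4 genes over 1.5-fold higher, beside 22.6% of all genes. It was Cdyl2, which passed only through KO2, KO3 and KO4 and is named here after its value was seen. Cdyl2 was at 0.730, 1.15, 1.96 and 4.11 FPKM in KO1 to KO4 and at 0.326, 0 and 0.798 FPKM in the WT oocytes, so KO1 overlapped WT4. Zfp518a was the most abundant of these partners, at 51.0 ± 3.04 FPKM in WT and 58.2 ± 6.81 in KO oocytes, and its difference of 0.18 turned to -0.06 with median-ratio scaling.

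None of 10 HP1 partners and readers above the filter was over 1.5-fold higher or lower as deposited, beside 22.6% and 7.92% of all genes. With median-ratio scaling 2 of them were over 1.5-fold lower, beside 14%, and none higher, beside 14.8%. Every KO oocyte then lay below for 4 of them, beside 14.9%, and above for none, beside 12.5%. With quantile normalization 1 was higher and 1 lower, beside 14.4% and 12.7%. Lbr, the lamin B receptor that ties HP1 to the nuclear envelope, was the most abundant at 605 ± 4.04 FPKM in WT and 794 ± 177 in KO oocytes. KO1, at 557 FPKM, was below the WT oocytes while the other KO oocytes were above them. The Lbr difference was 0.36 as deposited and 0.12 with median-ratio scaling. Lbr was the gene over 1.5-fold higher after quantile normalization, at 0.66 and without overlap.

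Of the genes that remove the mark, 1 of 7 was over 1.5-fold higher, beside 22.6% of all genes, and none was under the other scalings. This gene, Kdm3b, was at 1.19 ± 0.404 FPKM in WT and 2.31 ± 0.347 in KO oocytes. Other genes hold 24.1% of its annotated sequence, mainly Gm26538 (23.7%), which has no values here. The Kdm3b difference of 0.61 was 0.36 after quantile normalization, with overlap, and 0.45 with median-ratio scaling. Kdm1b, an oocyte demethylase of H3K4 with some activity toward H3K9, was at 26.2 ± 5.75 FPKM in WT and 36.0 ± 4.70 in KO oocytes, with overlap.

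**Figure D4:**
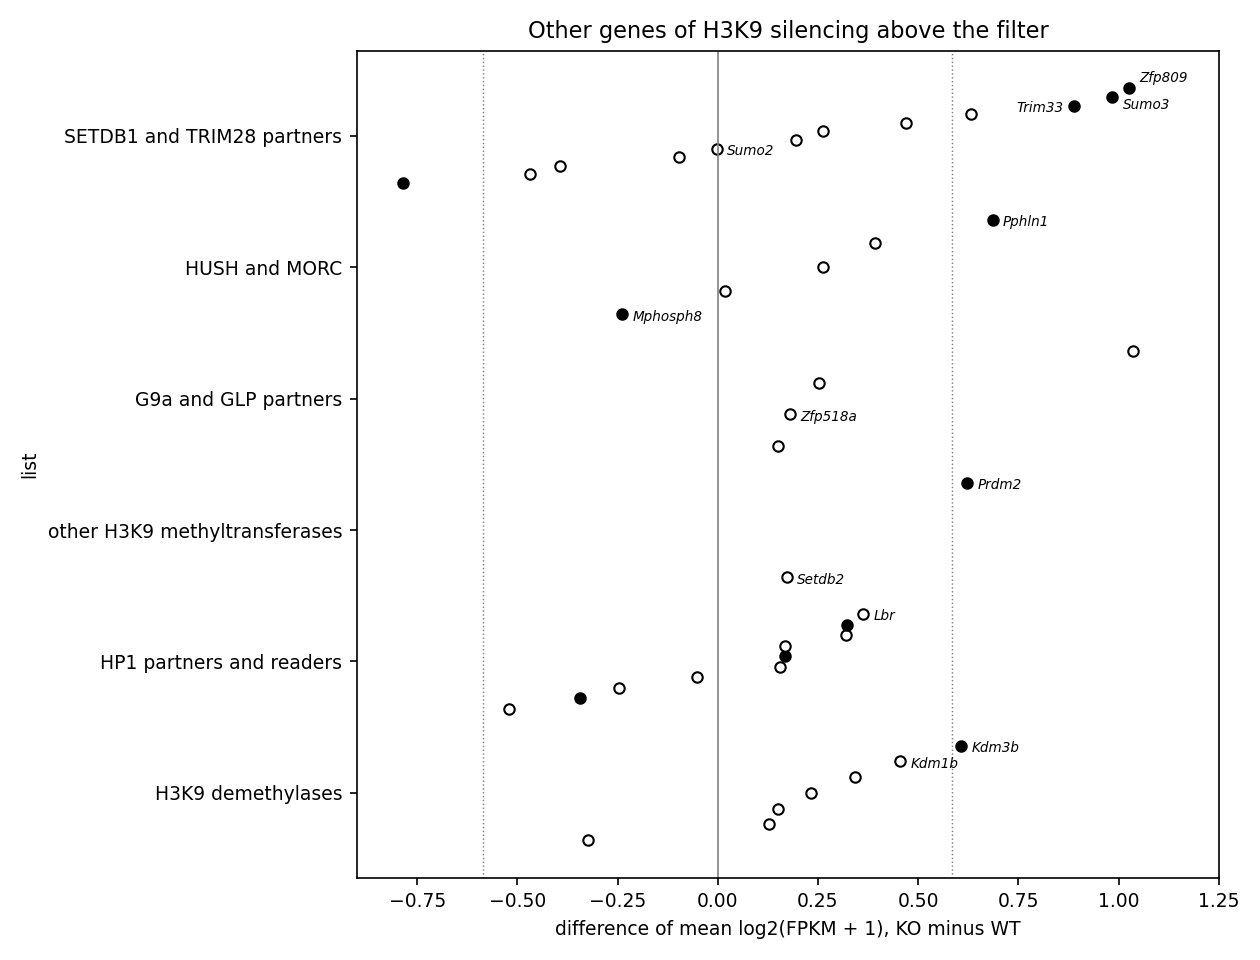
KO minus WT difference of mean log2(FPKM + 1) for the 40 other genes above the filter, by list. Filled symbols are genes whose KO and WT oocytes do not overlap in deposited FPKM, open symbols overlap, and dotted lines mark 1.5-fold. Zfp809 at 1.03 lies farthest right among the partners of SETDB1 and TRIM28, but it passed the filter only through KO oocytes. All 10 HP1 partners lie within 1.5-fold in deposited FPKM.

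Polycomb genes, of another silencing system that methylates a different lysine of histone H3, are given for comparison. Of 21 above the filter among 30, 3 were over 1.5-fold higher in KO, beside 22.6% of all genes, and none lower, beside 7.92%. Of the 21, 1 (Pcgf5) was under 1 FPKM in every WT oocyte and passed the filter only through KO oocytes. The filter itself thus favours a higher KO value for Pcgf5, which is among the higher genes under each scaling below. Quantile normalization gave 4 higher and 0 lower, beside 14.4% and 12.7%, and median-ratio scaling gave 3 higher and 2 lower, beside 14.8% and 14%. The median of 0.32 was 0.10 with median-ratio scaling.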

How the data were processed

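The deposited table holds 1 FPKM value per gene and single oocyte, not logged, which the authors had computed from SMARTer cDNA libraries that were pooled and sequenced on 2 lanes, per the labels' protocols. Of tools, the submitters' processing notes name edgeR 3.1.10, HTSeq, TopHat, TopHat2 2.0.2, Bowtie2 and Bowtie 0.12.8, with no role for each, and mm9 as the build. Symbols came from GENCODE M21 and named 32897 of 37620 identifiers. Promoters came from RefSeq, and no coordinates of the table's build are given. Spike-in values were not used here.

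Low FPKM values are whole multiples of 1 read, so reads were recovered as the smallest whole numbers within a tolerance of 0.01 for all 18300 genes with a value. For 2437 genes seen in 1 library this is a minimum. The procedure was tested on simulated data. Pairs of libraries within a genotype differed by a chi-square of 48.0 to 97.9 per gene, far over sampling noise. Differences are of mean log2(FPKM + 1) for the 8033 genes that reach 1 FPKM in 3 or more libraries, computed with numpy 2.4.6 and pandas 2.3.3. A fold on this scale understates changes of low genes. Alternatives were quantile normalization, median-ratio scaling, pseudocounts of 0.1 and 5, no filter, a filter at 10 FPKM and leaving out each oocyte. Shared sequence was counted as stretches of 50 bases over all annotated transcripts.

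The members, lists and size limits were chosen with earlier results of these data known. Named besides the members were, per list, up to 4 genes over 1.5-fold apart without overlap and the most abundant of the rest, and the 5 genes most like the members' mean profile. A few genes that this rule names are not reported here. Exact 95% Poisson intervals and the floor of 3 reads cover counting error only.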

Additional observations from a re-analysis of the deposited data

How the results depend on the processing

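No paired analysis was possible because the results come from no test, and the oocyte numbers are names of single cells. The count of members over 1.5-fold higher in KO was 1 under each other scaling, pseudocount and filter, and 1 to 2 when single oocytes were left out. It was 2 without WT1 and without KO3, where Setdb1 joined Trim28. No alternative put a member over 1.5-fold lower. Cbx1 came closest, at -0.580 with median-ratio scaling, barely short of 1.5-fold. Its rescaled means there were 38.0 in WT and 25.3 in KO oocytes. The median difference of the members, 0.18 as deposited, was -0.045 after quantile normalization, -0.024 after median-ratio scaling and 0.05 to 0.30 when single oocytes were left out. It was 0.37 for the members that pass a filter at 10 FPKM, a smaller set. The count of members with every KO oocyte above every WT oocyte was 2 with each scaling and filter and 2 to 3 when single oocytes were left out, with fewer oocytes to overlap. Among single members, Trim28 stayed between 0.91 and 1.35 and over 1.5-fold in 11 of 11 alternatives. Setdb1, Atf7ip, Cbx1 and Cbx5 kept their sign in all 11, and Suv39h2, Ehmt1 and Cbx3 in 9. Suv39h1 and Ehmt2 had 0 to 23 reads per library, and no difference between genotypes is given for them.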

Other observations

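Some neighbours and copies of the members had values of their own. Als2cr12, which shares 3.44% of the annotated sequence of Cbx3, was at 1.55, 5.06 and 4.21 FPKM in WT1, WT2 and WT4 and at 2.26, 2.79, 1.48 and 2.13 FPKM in KO1 to KO4. The pseudogene Cbx3-ps7 was at 0 to 0.0561 FPKM in all 7 oocytes, far below Cbx3-ps6. Dclre1c, an exonuclease gene whose exons overlap those of Suv39h2, was at 0.118 to 0.705 FPKM. Zfp57, a KRAB zinc finger gene that guards imprints through TRIM28, was at 103 ± 9.83 FPKM in WT and 79.5 ± 16.2 in KO oocytes. The difference of -0.39 was -0.63 with median-ratio scaling, where the KO oocytes lay below the WT range, beside 14.9% of all genes. Zfp445, of the same list, went the other way, at 2.95 ± 1.33 FPKM in WT and 4.90 ± 0.712 in KO oocytes. Its difference was 0.63, with overlap, and 0.43 with median-ratio scaling. As deposited, 7 of the 12 genes of that list above the filter had a positive difference. Uhrf1, which links H3K9 methylation to DNA methylation, was at 94.8 ± 6.78 FPKM in WT and 74.6 ± 7.36 in KO oocytes. Its KO oocytes lay below without overlap, beside 8.94% of all genes. Zfp57, Zfp445 and Uhrf1 were picked for mention after their values were seen.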
